A study of Mus musculus with 32 samples.

Results

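The GIMAP genes (GTPases of the immunity-associated proteins) form a family of small GTPases encoded side by side in the mouse genome. The 8 family genes studied, Gimap1 and Gimap3 to Gimap9, were taken by symbol. They were read in gene expression tables of 19404 genes from the embryonic thymus at E15.5 and 26244 genes at E19.5. All 8 were listed at E19.5 and 7 at E15.5, so Gimap7 was not analysed at E15.5. Of these, 6 at E15.5 and all 8 at E19.5 passed a filter on low values (a normalised count of 10 reached in 3 or more libraries) and were tested. Gimap3 failed the filter at E15.5.

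GIMAP proteins bind guanine nucleotides and sit mainly on the membranes of intracellular organelles. They are found mostly in lymphocytes, where the family is known for its part in the survival and homeostasis of T cells. Members have been linked to opposite effects: loss of Gimap5 shortens the life of peripheral T cells, while Gimap4 speeds the execution of programmed cell death.

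The libraries are bulk RNA-seq of cells sorted by flow cytometry from the embryonic thymus of a strain that the labels call 5x polychromILC mice. All groups, controls included, come from this strain, and its alleles are not spelled out in the sources used here. DN1 denotes the earliest CD4- and CD8-negative thymocytes, and DN2 the stage that follows. The DN1 cells were divided into gates by BCL11b, a transcription factor of T-lineage commitment, and ID2, an inhibitor of E proteins that innate lymphoid cells require. At E15.5 there were 3 libraries each of BCL11b+ID2-, BCL11b+ID2+, BCL11b-ID2+ and BCL11b-ID2- cells and 2 of DN2 cells. At E19.5 there were 3 libraries of each of these 5 populations and 3 of a BCL11blowID2low gate. The gates with either factor, BCL11blowID2low included, are called reporter-expressing gates here and were averaged with equal weight. Library numbers (M1 to M3 at E15.5, and M1, M2 and M4 at E19.5) come from the titles. The labels do not say whether a library is 1 embryo or a pool. The p-values set differences between gates against the spread of libraries within gates, pooled over the stage, and that spread may be technical.

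At E15.5 a library held 12030749 to 20709387 reads, and at E19.5 2599470 to 9498133, but mitochondrial ribosomal RNA took 50.8% to 80.0% and 28.7% to 58.8% of them. Without mitochondrial reads, the E15.5 libraries kept 3393061 to 7808245 reads and the E19.5 libraries 1762514 to 5161153. Genes detected numbered 8277 to 12954 in the E15.5 libraries and 14387 to 18879 in the E19.5 libraries. At E19.5 Id2 followed the gates: it was 961 to 1540.5 where ID2 was sorted as positive, 159 to 183 in BCL11blowID2low and at most 32.1 elsewhere. Bcl11b at E19.5 was 2.89 to 39.2 in the 2 BCL11b- gates and 1469 to 2076 in BCL11b+ID2-, but BCL11blowID2low (376 to 491) overlapped BCL11b+ID2+ (409 to 596). DN2 cells also held Bcl11b, at 454 to 1126. At E15.5 the gates were less sharp: the library labelled BCL11b-ID2+ M1 held Bcl11b at 509, and the library labelled BCL11b+ID2+ M1 held Id2 at 85.0, below the 126 of BCL11b-ID2- M1. A summed list of 10 DN1 and DN2 progenitor markers was highest in DN2 at both stages (36885 to 41052 at E15.5, 14828 to 17824 at E19.5), and Il2ra made up most of the E15.5 sum (28887 to 29785). Other members of that list were lower in DN2 than in BCL11b-ID2- at E15.5, with means of 1661 against 3543 for Kit and 251 against 1535 for Cd44. Each stage was normalised by the authors in its own table, so levels are set side by side only within a stage.

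In the GRCm38 genome the family lies on chromosome 6 between 48647234 and 48770851, a span of 124 kb with 6 genes on the plus strand and 2 (Gimap6 and Gimap3) on the minus strand. The order is Gimap8 (48647234 to 48660875), Gimap9 (48676129 to 48679114), Gimap4 (48684549 to 48692060), Gimap6 (48701582 to 48708225), Gimap7 (48718621 to 48724636), Gimap1 (48739054 to 48743795), Gimap5 (48746197 to 48754210) and Gimap3 (48764464 to 48770851). The read-through gene Gm28053 overlaps Gimap7, Gimap1 and Gimap5. It was listed at 1.92 in 1 BCL11b-ID2- library and 1.197 in 1 BCL11b-ID2+ library at E19.5, and at 0 in the other libraries of that stage. The antisense gene Gimap1os overlaps Gimap1, and the sources used here do not say whether counting used strand, so their reads may not be separable. Gimap3 and Gimap5 are near copies and may share reads.

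The results below turn on 3 genes, Gimap8, Gimap4 and Gimap3, which were higher in the mean of the reporter-expressing gates at E19.5. Gimap9 is shown as a neighbour that was not. Their promoter sequences upstream of the annotated start come from RefSeq (GRCm38.p6), read 5′ to 3′ on the gene's strand. Capitals mark matches, on either strand, to CANNTG (the E-box bound by E proteins), TGTGGT (RUNX), GGAAGT (ETS) or CTTTGA (TCF1 and LEF1). The windows are Gimap8 at chr6:48646984-48647233 (plus), Gimap4 at chr6:48684328-48684548 (plus), Gimap3 at chr6:48770852-48771101 (minus) and Gimap9 at chr6:48675885-48676128 (plus).
Gimap8: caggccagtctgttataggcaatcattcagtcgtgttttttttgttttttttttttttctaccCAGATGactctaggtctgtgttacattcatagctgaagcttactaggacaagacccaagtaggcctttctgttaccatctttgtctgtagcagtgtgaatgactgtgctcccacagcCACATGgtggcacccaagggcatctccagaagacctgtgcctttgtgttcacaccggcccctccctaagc
Gimap4: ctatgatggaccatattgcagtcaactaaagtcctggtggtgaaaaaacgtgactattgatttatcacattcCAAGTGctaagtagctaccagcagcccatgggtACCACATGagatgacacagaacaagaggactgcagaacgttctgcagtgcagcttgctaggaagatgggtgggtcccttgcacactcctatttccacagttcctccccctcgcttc
Gimap3: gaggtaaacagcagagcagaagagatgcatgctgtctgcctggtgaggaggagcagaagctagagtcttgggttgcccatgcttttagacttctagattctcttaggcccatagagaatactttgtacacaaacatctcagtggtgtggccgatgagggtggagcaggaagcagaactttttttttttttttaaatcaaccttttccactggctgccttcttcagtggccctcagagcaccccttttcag
Gimap9: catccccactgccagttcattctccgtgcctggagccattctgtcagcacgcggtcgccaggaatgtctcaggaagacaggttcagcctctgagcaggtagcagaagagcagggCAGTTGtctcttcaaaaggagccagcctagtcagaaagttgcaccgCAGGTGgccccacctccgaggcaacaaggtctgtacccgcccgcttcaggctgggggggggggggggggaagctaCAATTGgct
RefSeq promoters outside annotated exons were available for 7 of the 8 genes, Gimap1 being the exception. CANNTG was present in 6 of these 7 windows, Gimap3 lacking it, against 66.2% of 32851 mouse promoter windows of 250 bases. TGTGGT was in 2 of 7 (Gimap4 and Gimap7; 14.05% of all promoters), GGAAGT in 2 of 7 (Gimap6 and Gimap5; 19.7%) and CTTTGA in 0 of 7 (13.8%). In Gimap4 the capital run holds a TGTGGT match on the reverse strand that overlaps a CANNTG match. The 3 genes that were higher shared none of these motifs, since Gimap3 held none. A match describes the letters of the window and not binding.

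At E19.5 the threshold split the GIMAP genes into a set higher in the mean of the reporter-expressing gates and a set that passed in neither direction. Gimap4, Gimap3 and Gimap8 were higher in the mean of the reporter-expressing gates than in BCL11b-ID2- cells and than in DN2 cells. Gimap1, Gimap5, Gimap6, Gimap7 and Gimap9 passed in neither comparison, though Gimap5 had a log2 difference of 1.58 from DN2 with a limma adjusted p of 0.0712. Against BCL11b-ID2-, 3 of 8 were higher and 0 lower, where 17.5% of all 13840 genes tested passed and 8.91% were higher. Against DN2, 3 of 8 were higher and 0 lower, where 21.8% of all genes passed and 12.7% were higher. The median log2 difference of the 8 genes was 0.63 against BCL11b-ID2- and 1.09 against DN2, beside medians of -0.07 and 0.01 over all genes. The 2 comparisons share the reporter-expressing libraries. Taken alone, BCL11b+ID2+ was not called above BCL11b-ID2- for Gimap4, Gimap3 or Gimap8 (limma adjusted p = 0.799, 0.0753 and 0.918). Tests are by limma on log2(value + 1) over all genes of the stage, with Benjamini-Hochberg adjustment and a threshold of 0.05; the pseudocount of 1 understates differences of low genes.

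Gimap4, the member that speeds cell death in T cells, had the widest range. Its DESeq2-normalised count in the E19.5 libraries (M1, M2, M4) was 0, 5.33 and 9.45 in DN2 and 57.3, 44.1 and 60.5 in BCL11b-ID2-. It was 1220.0, 827 and 663 in BCL11blowID2low, 357, 598 and 529 in BCL11b+ID2-, and 470.0, 414 and 635 in BCL11b-ID2+. In BCL11b+ID2+ it was 199, 46.4 and 33.6. Thus every library of the first 3 reporter-expressing gates stood above every BCL11b-ID2- library, while the BCL11b+ID2+ libraries overlapped them and all lay above DN2. The mean of the reporter-expressing gates was 9.25-fold that of BCL11b-ID2- (log2 difference 2.67 ± 0.50, SE; limma adjusted p = 0.000486) and 101-fold that of DN2 (6.43 ± 0.50; limma adjusted p = 1.75e-09). BCL11b-ID2- itself lay 10.96-fold above DN2 (log2 difference 3.75 ± 0.64; limma adjusted p = 0.000925), the only member called in that pair, where 2.08% of all genes were higher. In a fit of those 2 populations alone the adjusted p of that pair was 0.0511. In a bulk sample, fewer expressing cells and less RNA per cell cannot be told apart.

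Gimap3, which sits on mitochondria and can bind BCL2 family proteins, was nearly silent in DN2. Its counts in M1, M2 and M4 were 0, 0 and 0.727 in DN2, the last being 1 read, and 0, 2.17 and 16.3 in BCL11b-ID2-. They were 58.1, 33.5 and 73.4 in BCL11blowID2low and 5.21, 64.3 and 59.0 in BCL11b+ID2-. BCL11b+ID2+ had 94.4, 13.3 and 11.9, and BCL11b-ID2+ had 137, 82.9 and 88.6. The highest library was BCL11b-ID2+ M1, followed by BCL11b+ID2+ M1, and all reporter-expressing libraries lay above all DN2 libraries. The ratio to DN2 was 236 by reads, with a 95% counting interval of 42.2 to 9318 that covers counting error only (log2 difference 5.23 ± 0.81; limma adjusted p = 4.13e-05). Against BCL11b-ID2- the mean was 9.75-fold higher (3.56 ± 0.81; limma adjusted p = 0.00287). Without BCL11b-ID2- M1, which had no reads, the log2 difference was 2.599 and the adjusted p 0.0595.

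Gimap8, whose protein carries several GTPase domains, was 14.1, 2.66 and 2.18 in DN2 (M1, M2, M4) and 15.9, 21.7 and 3.84 in BCL11b-ID2-. It was 111, 31.3 and 76.7 in BCL11blowID2low, 255, 137 and 90.4 in BCL11b+ID2- and 119, 74.5 and 53.1 in BCL11b-ID2+. In BCL11b+ID2+ it was 17.8, 14.4 and 3.30. BCL11b+ID2+ therefore fell in the range of DN2 and BCL11b-ID2-, and every library of the other 3 reporter-expressing gates lay above all of those. The mean of the reporter-expressing gates was 5.94-fold that of BCL11b-ID2- (log2 difference 2.12 ± 0.62; limma adjusted p = 0.0195) and 12.95-fold that of DN2 (3.25 ± 0.62; limma adjusted p = 0.00044). Without BCL11b-ID2- M4 the former had a log2 difference of 1.45 and an adjusted p of 0.203.

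**Figure D1:**
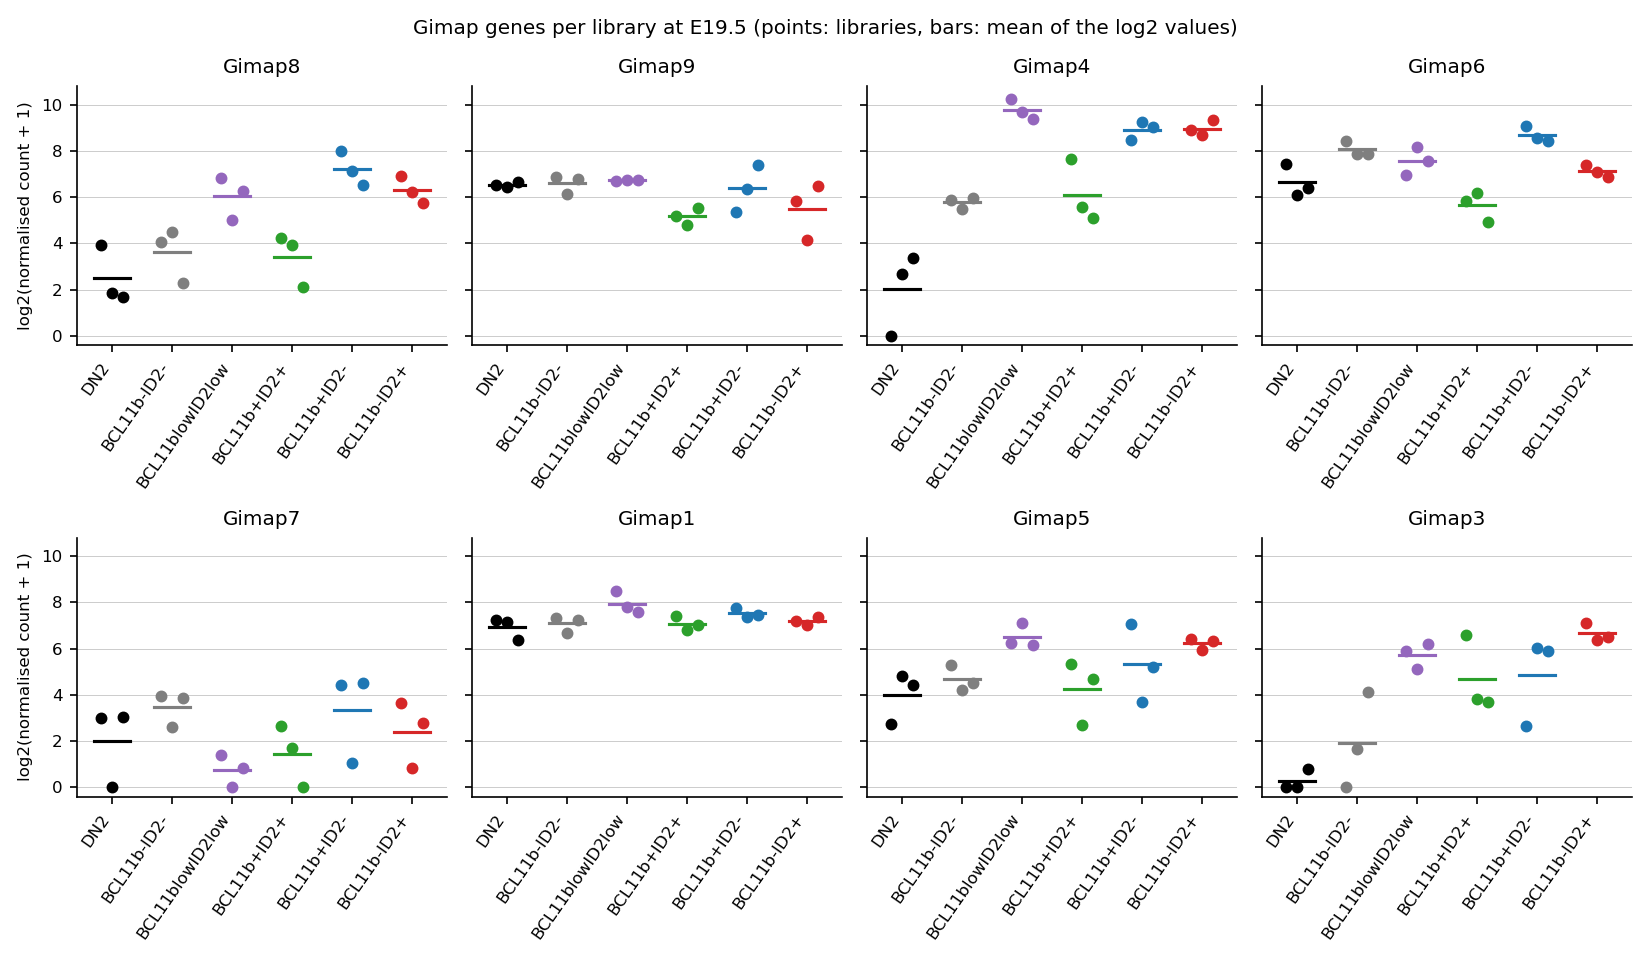
log2(normalised count + 1) of each of the 8 GIMAP genes at E19.5, 1 panel a gene; points are the 3 libraries of each gate and bars the mean of their log2 values. Gimap4, Gimap3 and Gimap8 are low in DN2 and high in BCL11blowID2low, BCL11b+ID2- and BCL11b-ID2+, and Gimap1 and Gimap9 are close to level.

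Gimap6, which binds the autophagy protein GABARAPL2, did not follow this pattern. At E19.5 it was 346, 234 and 232 in BCL11b-ID2- (M1, M2, M4), against 536, 371 and 346 in BCL11b+ID2-. BCL11b-ID2+ had 167, 133 and 116, and BCL11b+ID2+ only 55.2, 70.8 and 29.7. BCL11blowID2low had 124, 284 and 187, and DN2 172, 66.6 and 83.6. BCL11b+ID2- held the 2 highest libraries, BCL11blowID2low M2 lay within the BCL11b-ID2- range, and BCL11b+ID2+ had the lowest mean, its M2 library lying above DN2 M2. Gimap6 was 5.22-fold lower in BCL11b+ID2+ than in BCL11b-ID2- (log2 difference -2.42 ± 0.40; limma adjusted p = 0.000139) and 3.88-fold higher in BCL11b+ID2- than in DN2 (2.04 ± 0.40; limma adjusted p = 0.000949). Over the averaged gates the difference from BCL11b-ID2- was -0.81 ± 0.31 with an adjusted p of 0.0801, and from DN2 0.61 ± 0.31 with an adjusted p of 0.18.

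Gimap1, which mature T and B cells require, was the steadiest member. Its gate means at E19.5 lay between 125 ± 37.0 (SD, n = 3) in DN2 and 255 ± 87.1 in BCL11blowID2low. In 1 of 15 pairs of gates, BCL11blowID2low against DN2, it was called (2.05-fold; log2 difference 1.02 ± 0.33; limma adjusted p = 0.0403), and this call was lost when any of 5 of the 18 libraries was left out. Gimap5, a lysosomal member whose loss causes lymphopenia in rodents, ran from 17.8 ± 11.1 in DN2 to 94.2 ± 37.6 in BCL11blowID2low. It was called against DN2 in BCL11blowID2low (5.30-fold; log2 difference 2.51 ± 0.78; limma adjusted p = 0.0319) and in BCL11b-ID2+ (4.24-fold; 2.25 ± 0.78; limma adjusted p = 0.0455). These were lost in 4 and 10 of 18 fits that each left out 1 library. Gimap9 had a mean of 105 ± 1.48 in BCL11blowID2low and 92.0 ± 7.495 in DN2, and BCL11b+ID2+ had the lowest, 35.9 ± 9.49. Gimap7 was near the limit of detection, with gate means from 0.822 ± 0.83 in BCL11blowID2low to 14.7 ± 11.8 in BCL11b+ID2-. Gimap9 and Gimap7 were called in 0 of 15 pairs each by limma, edgeR and DESeq2, and 5 and 2 pairs had an unadjusted p under 0.05 in limma. Such a p was common over all 13840 genes. It was held by 2305 in BCL11b+ID2+ against BCL11blowID2low and 4193 in BCL11b+ID2+ against DN2, where Gimap9 also had it. In BCL11blowID2low against BCL11b-ID2-, where Gimap7 had it, 3574 genes did.

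Per kilobase of merged exon, the scale on which genes can be compared, Gimap4 had the highest mean of the members in the 4 reporter-expressing gates at E19.5. Its mean normalised count per kb was 492 in BCL11blowID2low and 276 in BCL11b-ID2+. BCL11b+ID2- had 269, and BCL11b+ID2+ had 50.7 ± 50.2 (SD, n = 3). In BCL11b+ID2+ this rank rested on M1: Gimap4 per kb was 109, 25.3 and 18.3 in M1, M2 and M4, and Gimap1 was 55.6, 35.6 and 41.6. Without M1 the means per kb were 21.8 for Gimap4 and 38.6 for Gimap1. In BCL11b-ID2- the highest level per kb was that of Gimap6, at 77.5, followed by Gimap9 at 59.8 and Gimap1 at 44.7, with Gimap4 at 29.4. In DN2 it was Gimap9 at 56.0, followed by Gimap1 at 40.5 and Gimap6 at 30.8, with Gimap4 at 2.68. DN2 and BCL11b-ID2- cells thus held GIMAP transcripts too, with other members leading.

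**Figure D2:**
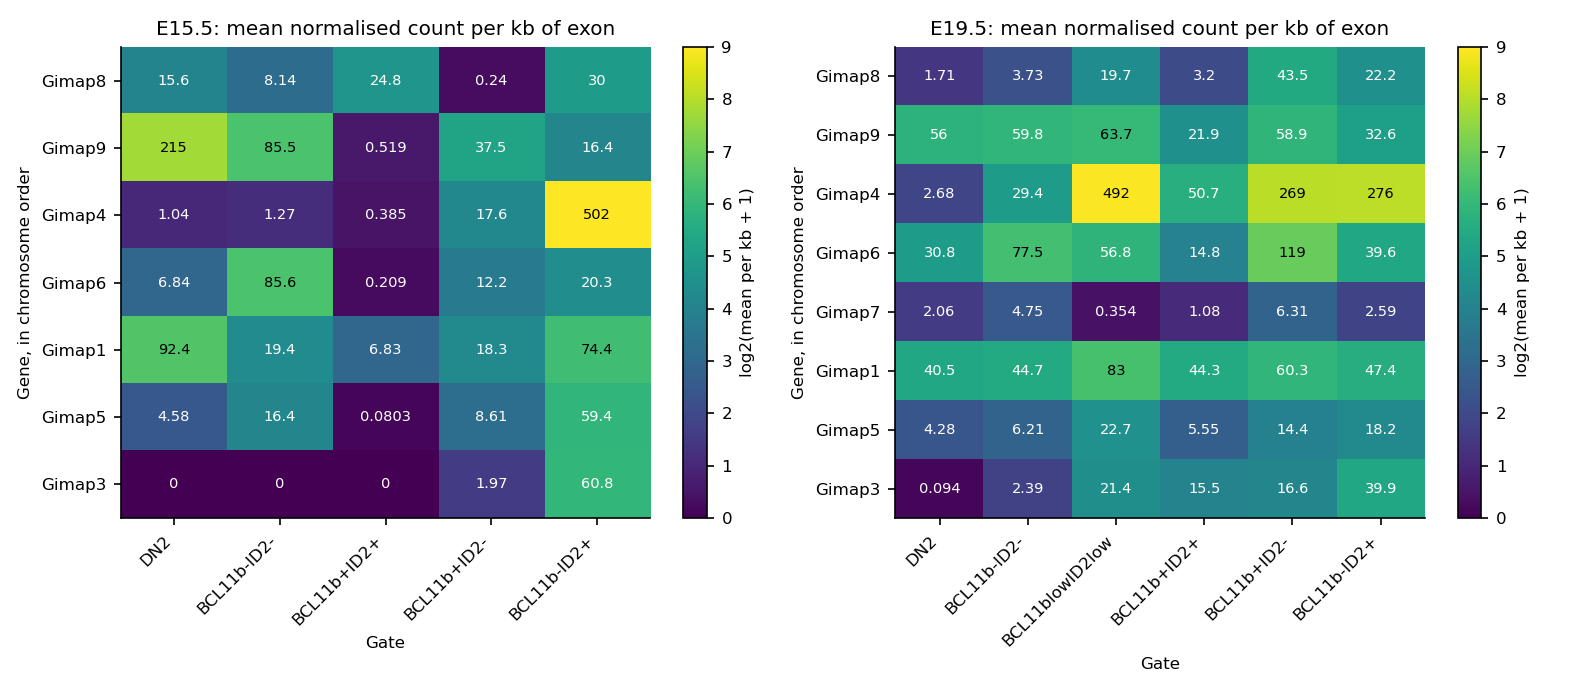
Mean normalised count per kilobase of merged exon for each GIMAP gene (down, in chromosome order) and gate (across), at E15.5 on the left and E19.5 on the right; colour is log2(mean per kb + 1). At E19.5 Gimap4 has the highest mean in the reporter-expressing gates, at 492 in BCL11blowID2low but at 50.7 in BCL11b+ID2+, where it rests on library M1; Gimap9 is highest in DN2, at 56.0.

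Over all 15 pairs of gates at E19.5, 34 of 120 member-by-pair tests passed (28.3%), beside 11.99% over all genes and pairs. By member, Gimap4 was called in 11 pairs, Gimap8 in 8, Gimap3 and Gimap6 in 6 each, Gimap5 in 2 and Gimap1 in 1. Against DN2, 5 of 8 members were higher in BCL11blowID2low, where 8.23% of all genes were higher. The count was 4 for BCL11b+ID2- (9.41% of all genes higher), 4 for BCL11b-ID2+ (12.5%) and 2 for BCL11b+ID2+ (11.7%). Against BCL11b-ID2-, 3 were higher in BCL11blowID2low (6.7% of all genes higher). The count was 3 for BCL11b-ID2+ (8.82%) and 2 for BCL11b+ID2- (7.51%), while the single call for BCL11b+ID2+ was the lower Gimap6 (6.3% of all genes lower). Of these, the Gimap8 call in BCL11blowID2low was lost in 8 of 18 fits that left out 1 library and that in BCL11b-ID2+ in 3. These pairs share libraries and are not independent counts. For Gimap4 the order of gate means was BCL11blowID2low (904), BCL11b-ID2+ (506), BCL11b+ID2- (495), BCL11b+ID2+ (93.2), BCL11b-ID2- (54.0) and DN2 (4.93). Neighbours in this order passed the test at 2 places, between BCL11b+ID2- and BCL11b+ID2+ (limma adjusted p = 0.00555) and between BCL11b-ID2- and DN2.

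The BCL11b+ID2+ gate was lower than other reporter-expressing gates for several members. It had the lowest mean of the 4 in 7 of 8 members at E19.5, the exception being Gimap7, and the share of all genes lowest in it is not given here. Over all genes, BCL11b+ID2+ had median log2 differences of -0.005 (BCL11b+ID2- minus it), 0.04 (BCL11b-ID2+ minus it) and 0.09 (it minus BCL11blowID2low). Compared with BCL11b+ID2-, Gimap8 was 13.6-fold lower in it (log2 difference of BCL11b+ID2- minus BCL11b+ID2+ 3.78 ± 0.79; limma adjusted p = 0.00265), Gimap6 8.05-fold lower (3.04 ± 0.40; limma adjusted p = 1.77e-05) and Gimap4 5.31-fold lower (2.81 ± 0.64; limma adjusted p = 0.00555). These 3 of 8 members stand beside 3.61% of all genes in that direction. Gimap8, Gimap4 and Gimap6 were also lower than in BCL11b-ID2+ (2.88% of all genes in that direction), by 6.94-fold for Gimap8 (limma adjusted p = 0.0281), 5.43-fold for Gimap4 (0.00569) and 2.67-fold for Gimap6 (0.0263). Leaving out 1 library ended these calls in 4, 1 and 4 of 18 fits, with adjusted p up to 0.179, 0.0543 and 0.175. For Gimap4 the library was BCL11b+ID2+ M4. For Gimap8 they were BCL11b+ID2+ M4 and any of BCL11b-ID2+, and for Gimap6 M1 or M4 of BCL11b+ID2+ and M1 or M2 of BCL11b-ID2+. Gimap4 and Gimap6 were lower than in BCL11blowID2low (1.46% of all genes in that direction). Gimap6 was also 3.01-fold lower in BCL11b-ID2+ than in BCL11b+ID2- (log2 difference -1.57 ± 0.40; limma adjusted p = 0.00885; 5.74% of all genes lower), with an adjusted p of 0.0563 without BCL11b+ID2- M1.

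For 4 members the difference between ID2+ and ID2- gates differed between BCL11b+ and BCL11b- cells. The interaction, the ID2+ minus ID2- difference among BCL11b+ gates minus that among BCL11b- gates, passed in 4 of 8 members at E19.5, all negative, beside 9.28% of all genes passing and 4.7% negative. For Gimap4 the log2 difference of BCL11b-ID2+ over BCL11b-ID2- was 3.19 ± 0.64, while that of BCL11b+ID2- over BCL11b+ID2+ was 2.81 ± 0.64. The interaction was -6.01 ± 0.90 for Gimap4 (limma adjusted p = 0.000112), -6.46 ± 1.12 for Gimap8 (limma adjusted p = 0.00052), -4.89 ± 1.45 for Gimap3 (limma adjusted p = 0.0347) and -2.09 ± 0.56 for Gimap6 (limma adjusted p = 0.0204). Gimap4 and Gimap8 passed whichever library was left out. Gimap3 failed in 9 of 18 such fits (adjusted p up to 0.0991) and Gimap6 in 5 (up to 0.0633). Gimap3 failed without any 1 library of BCL11b-ID2+, without M1 or M2 of BCL11b-ID2-, and without M2 or M4 of either BCL11b+ gate. Gimap6 failed without M2 or M4 of BCL11b-ID2-, M1 of BCL11b+ID2-, M4 of BCL11b+ID2+ or M1 of BCL11b-ID2+. The median over the 8 members was -2.37, beside 0.01 over all genes.

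**Figure D3:**
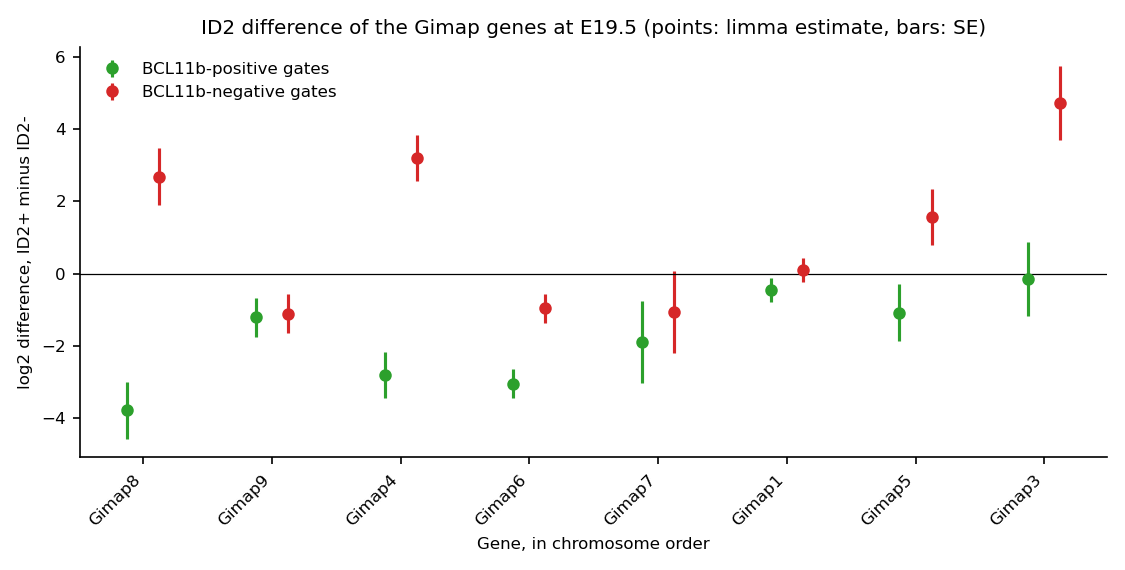
log2 difference between ID2+ and ID2- gates at E19.5 for each GIMAP gene, among BCL11b+ gates (green) and BCL11b- gates (red); points are limma estimates and bars their SE. For Gimap8 and Gimap4 the red points lie above 0 and the green below.

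Marker lists of other cell types moved with the gates. At E19.5 the summed 8 NK and ILC1 markers were 16738 to 20382 in BCL11b-ID2+, 4780 to 6018 in BCL11b+ID2-, 1632 to 2091 in BCL11blowID2low, 746 to 1401 in BCL11b+ID2+, 864 to 1802 in DN2 and 110 to 257 in BCL11b-ID2-. The 7 ILC2 markers were 5749 to 6433 in BCL11b+ID2+ and 182 to 1706 in the other gates. The 8 gamma-delta T-cell markers were 14972 to 16773 in BCL11b+ID2-, 13641 to 15456 in BCL11blowID2low, 6724 to 9638 in DN2, 3598 to 3820 in BCL11b+ID2+, 1679 to 1970 in BCL11b-ID2+ and 760 to 798 in BCL11b-ID2-. S1pr1, Klf2 and Cd8a, from a list of later alpha-beta thymocyte and mature T-cell markers, were higher in every reporter-expressing gate mean than in the DN2 and BCL11b-ID2- means. S1pr1, a receptor for thymic exit, had gate means of 157 to 473, against 10.3 in DN2 and 38.4 in BCL11b-ID2-. Klf2, which drives S1pr1, had 106 to 167 against 5.90 and 19.8, and Cd8a 41.9 to 437 against 6.58 and 18.04. The part of any of these cells in the GIMAP differences was not tested. Macrophage and granulocyte markers (8 genes) summed to 2067 to 3143 in BCL11b-ID2- and 4.13 to 867 elsewhere. Of 11 endothelial markers, listed because endothelium also expresses GIMAP genes, 9 were in the table. Their sums were 279 to 438 in BCL11b-ID2-, 198 to 478 in DN2, 366 to 720 in BCL11b+ID2-, 102 to 260 in BCL11b+ID2+, 126 to 203 in BCL11b-ID2+ and 42.8 to 226 in BCL11blowID2low. In BCL11blowID2low, Pecam1 was 41.2 to 153, Egfl7 0 to 69.7 and Esam 0 to 3.32, and the other 6 (Cdh5, Kdr, Tie1, Emcn, Plvap and Vwf) were at 0 in all 3 libraries.

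The survival genes and partners of the GIMAP proteins were read from a list of 14, of which 13 were tested at E19.5. Against BCL11b-ID2-, 3 were higher and 1 lower, beside 8.91% of all genes higher and 8.57% lower, with a list median of 0.55 beside -0.07 over all genes. Il7r, the receptor for the survival cytokine IL-7, had a log2 difference of 3.29 (limma adjusted p = 2.91e-09), Bcl2, an inhibitor of cell death, 2.95 (9.09e-08) and Bcl2l11, which encodes the pro-death BIM, 1.43 (6.88e-05), while Bid, another pro-death gene, had -1.42 (0.0322). Against DN2, 5 were higher and 0 lower, beside 12.7% of all genes higher and 9.18% lower, with a median of 0.52 beside 0.01: Bbc3 (3.01), Bcl2l11 (2.41), Il7r (1.76), Mcl1 (0.81) and Gabarap (0.77). Genes that promote and genes that block cell death were both among the higher ones. Bbc3 was near the floor, with a mean of 0 in DN2, 0.553 in BCL11blowID2low and at most 21.5 elsewhere (BCL11b+ID2+, SD 19.3). For Il7r the mean of BCL11b+ID2-, 499 with an SD of 275, lay near the 457 of DN2, with an SD of 141. Unlike Gimap4, Il7r had its highest mean in BCL11b+ID2+, at 4463 ± 710 (SD, n = 3), and Bcl2 was at 944 ± 354 there and at 619 ± 108 in DN2.

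None of the tested neighbouring genes passed as higher. The nearest 6 protein-coding genes of the E19.5 table on each side were taken, and 10 of these 12 were tested. In both comparisons 0 were higher and 3 lower, namely Repin1 (log2 difference -3.99 against BCL11b-ID2- and -3.19 against DN2), Tmem176b (-1.60 and -1.20) and Igf2bp3 (-0.76 and -0.68). These 3 of 10 stand beside 8.57% and 9.18% of all genes lower. The list medians were -0.64 and -0.47, beside -0.07 and 0.01 over all genes. Within the cluster the 3 called genes were not adjacent: Gimap9 lies between Gimap8 and Gimap4, and Gimap3 lies at the far end.

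**Figure D4:**
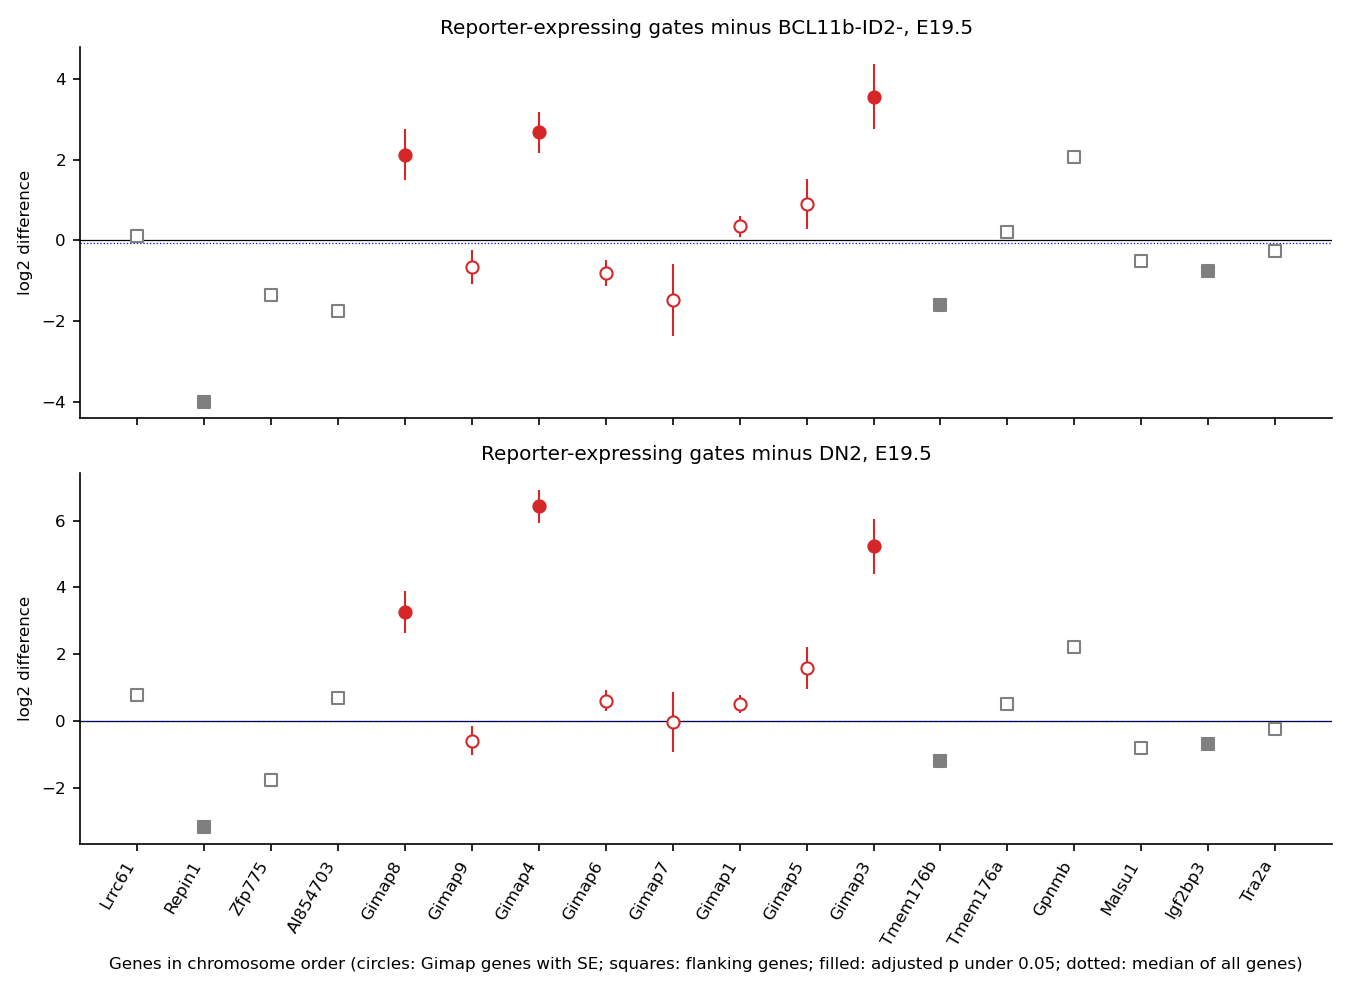
log2 difference of the mean of the reporter-expressing gates from BCL11b-ID2- (top) and from DN2 (bottom) at E19.5, for GIMAP genes (red circles with SE) and tested flanking genes (grey squares) in chromosome order; filled symbols passed an adjusted p of 0.05 and the dotted line is the median of all genes. Gimap8, Gimap4 and Gimap3 are filled above 0 in both panels, and the filled flanking genes Repin1, Tmem176b and Igf2bp3 lie below 0.

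At E15.5 Gimap4 was high in the BCL11b-ID2+ gate, and the averaged comparisons called none of the 6 tested members. The Gimap4 counts in M1, M2 and M3 were 1106, 447 and 1213 in BCL11b-ID2+ but 13.1, 80.4 and 3.16 in BCL11b+ID2-. BCL11b-ID2- had 5.68, 0.66 and 0.674, and BCL11b+ID2+ had 0.9997, 1.12 and 0. DN2 had 1.37 and 2.45. Every BCL11b-ID2+ library lay above every other library of the stage. Of 60 member-by-pair tests over 10 pairs of gates, 1 passed (1.67%, beside 0.405% over all genes and pairs): Gimap4 was 394-fold higher in BCL11b-ID2+ than in BCL11b-ID2- (log2 difference 8.32 ± 1.91; limma adjusted p = 0.0431; 0.321% of all genes higher). Gimap4 passed the filter only through BCL11b-ID2+, since outside that gate it reached 10 only in M1 and M2 of BCL11b+ID2-. The call is therefore not independent of how the gene came to be tested. The call was lost in 10 of 14 fits that left out 1 library, with adjusted p between 0.0396 and 0.228. Without BCL11b-ID2+ M1, the library with the Bcl11b counts, the log2 difference was 8.12 and the adjusted p 0.133, and without BCL11b-ID2- M1 they were 8.98 and 0.0974. Without BCL11b+ID2+ M1, they were 8.32 and 0.0526. It was kept without M2 or M3 of BCL11b+ID2- or of BCL11b+ID2+. The limma adjusted p of this Gimap4 call was 0.0768 without the filter, 0.0531 with TMM scaling and 0.0519 with only the populations compared. With the library number as a replicate block it was 0.0616. The adjusted p was 0.209 in edgeR and 1.77e-08 in DESeq2. NK and ILC1 markers (8 genes) summed to 12409 to 16204 in BCL11b-ID2+ and 237 to 6921 in the other gates. Gzma made up nearly all of the sum in DN2 (2331 to 6909) and in BCL11b+ID2- (1891 to 4566), and was 2567 to 4128 in BCL11b-ID2+. The part of these markers in the Gimap4 level was not tested.

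Gimap9, in contrast, was highest in DN2, at 326 and 379. BCL11b-ID2- (M1 to M3) had 126, 71.95 and 223, and BCL11b+ID2- had 88.1, 44.6 and 52.2. BCL11b-ID2+ had 7.19, 25.8 and 47.9, and BCL11b+ID2+ had 1.999, 0.56 and 0. Both DN2 libraries stood above all others, yet the averaged difference did not pass (log2 difference -4.76 ± 1.72; limma adjusted p = 0.353). Gimap6 was 476, 384 and 37.1 in BCL11b-ID2-, 125, 2.17 and 1.58 in BCL11b+ID2-, and 57.6, 2.34 and 153 for BCL11b-ID2+. BCL11b+ID2+ had 0, 0.56 and 1.64, and DN2 had 0 and 47.8. BCL11b-ID2- held its 2 highest libraries, and M3 of that gate overlapped other gates.

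Gimap5 was 387, 44.5 and 308 in BCL11b-ID2+ and 0.9997, 0 and 0 in BCL11b+ID2+, with 0 to 163 in the remaining gates. Gimap1 was 265, 170.0 and 251 in BCL11b-ID2+, 63.0, 0 and 0 in BCL11b+ID2+, while DN2 had 499.5 and 68.6. Gimap8 varied widely within gates, from 0 to 150.5 in BCL11b+ID2+ and from 12.9 to 246 in BCL11b-ID2+. Gimap3 was seen in 3 of 14 libraries, at 469 in BCL11b-ID2+ M2, 15.2 in BCL11b+ID2- M2 and 1.26 in BCL11b-ID2+ M3, and was listed at 0 in the other 11. The antisense Gimap1os ranged from 0 to 232 at this stage, highest in DN2 M2.

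**Figure D5:**
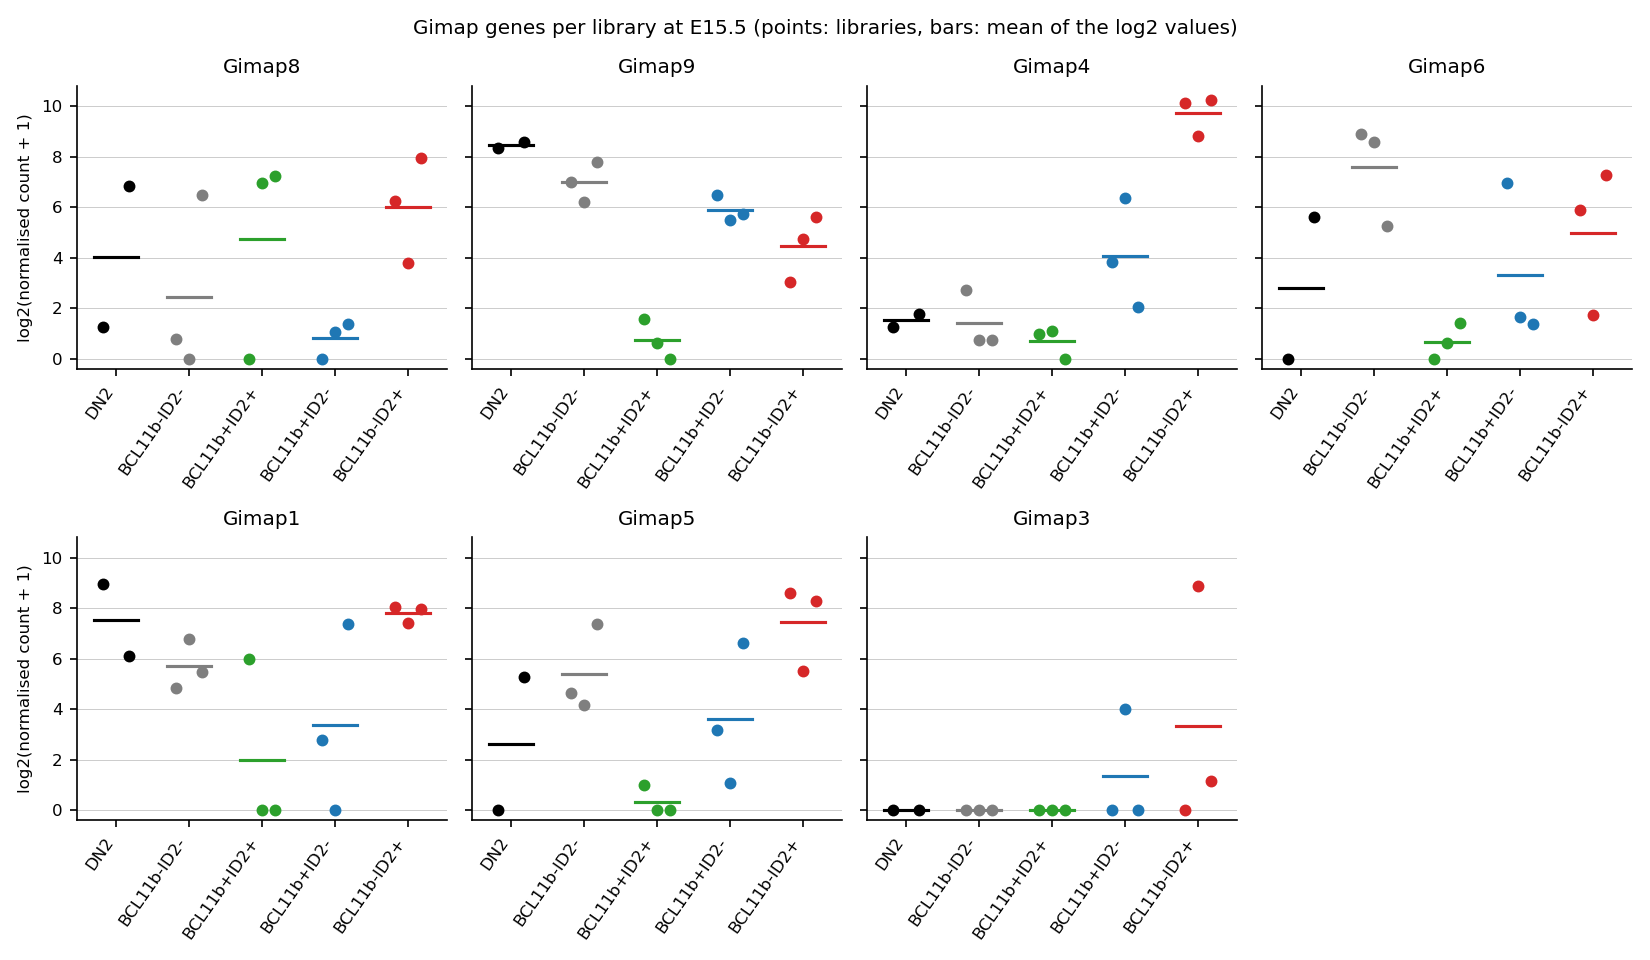
log2(normalised count + 1) of the 7 GIMAP genes of the E15.5 table, 1 panel a gene; points are libraries (3 a gate, 2 for DN2) and bars the mean of their log2 values. Gimap4 is highest in BCL11b-ID2+, Gimap9 is highest in DN2, and the points of several gates spread over most of the axis.

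The averaged comparisons at E15.5 called 0 of 6 members by limma against BCL11b-ID2- (0.272% of all 10289 genes passed), 0 of 6 against DN2 (0.253%) and 0 of 6 in the interaction (0%). At an unadjusted limma p under 0.05 there were 3, 1 and 1 of the 6 members, beside 926, 882 and 662 of all 10289 genes. The quasi-likelihood test of edgeR on recovered reads also called 0 in each, and DESeq2 on them called 2 (1 higher, 1 lower), 1 (lower) and 1 (lower). The share of all genes that DESeq2 called is not given here, so these DESeq2 counts cannot be set against it. The median of the 6 members was -1.44 against BCL11b-ID2-, beside -0.37 over all genes, and -0.004 against DN2, beside 0.04. For Gimap5 and Gimap1 the 2 scales differed in sign against BCL11b-ID2-: the ratio of means was 1.38 and 1.71, and the log2 difference -1.59 and -1.30. The SD exceeded the mean in 17 of 30 member-by-gate groups at E15.5 (56.7%, beside 49.4% over all genes) and in 7 of 48 at E19.5 (14.6%, beside 13.8%). BCL11b+ID2+ had the lowest mean of the reporter-expressing gates in 6 of 7 members at E15.5, Gimap8 being the exception. Genes in general leaned lower in that gate: the median log2 difference over it was 0.44 for BCL11b-ID2+ and 0.22 for BCL11b+ID2-. Its libraries M3 and M1 also had the fewest genes detected at the stage (8277 and 9024). The share of all genes with their lowest mean in that gate is not given here. The smallest limma adjusted p at E15.5 over both averaged comparisons was 0.306 among the 11 tested genes of the survival list (Bcl2 against BCL11b-ID2-) and 0.394 among the 11 tested flanking genes (Tra2a against DN2).

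Members varied together only in part. Pearson r between the log2 values of 2 members over the 18 libraries of E19.5 ran from -0.20 to 0.84 over 28 pairs, with a median of 0.34 and 22 pairs positive. Gimap4 with Gimap3 (0.84) and Gimap4 with Gimap8 (0.76) were among the highest, and Gimap9 with Gimap3 the lowest. Over the 14 libraries of E15.5, 15 pairs ran from -0.26 to 0.60 with a median of 0.29 and 13 positive. Libraries of 1 gate share that gate, so these values are descriptions. Other tested genes were ranked by likeness to the mean log2 value of the members, leaving out predicted, unnamed, mitochondrial and ribosomal protein genes. The genes most like it at E19.5 were the chemokine receptor Ccr7 (r = 0.91), a gene of the mature T-cell list above, Rassf2 (0.90), Nfatc1 (0.88), Tox (0.85) and Taf4 (0.84), over 18 libraries. At E15.5 they were Emc7 (0.89), Zfp772 (0.86), H3f3a (0.86), Arl4a (0.85) and Aoah (0.85), over 14. Ccr7 was 209 ± 119 (SD, n = 3) in BCL11blowID2low, 121 ± 19.2 in BCL11b+ID2- and 44.99 ± 20.2 for BCL11b-ID2+. BCL11b-ID2- had 14.9 ± 19.52, BCL11b+ID2+ 10.83 ± 16.9 and DN2 2.13 ± 1.27.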

How the data were processed

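Cells were sorted into PBS with serum, and RNA was taken with an RNeasy Plus micro kit and amplified with the Ovation RNA-seq System V2, per the labels' protocols. The submitters' processing notes name the GRCm38 build and 3 tools, with no role given: Trim Galore (0.50), STAR (2.6.0a) and DESeq2 (1.18.1). The counter, its annotation and its use of strand are not given in the sources used here. The deposited values are a normalised signal, 1 table per stage; the labels name them DESeq-normalised read counts. Dividing each column by its value for 1 read gave whole reads for 100% of values, within 0.01. E15.5 columns, named by number alone, were matched to samples by the barcode number in the descriptions, and E19.5 columns by the library and population numbers in the titles.

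Genes reaching 10 in 3 or more libraries were tested (10289 at E15.5, 13840 at E19.5) on log2(value + 1) in limma 3.58.1 (R 4.3.3; trend, robust), all populations of a stage in 1 model, with Benjamini-Hochberg adjustment within each comparison and a threshold of 0.05. Stages were not tested against each other. Alternatives were a pseudocount of 8, no filter, TMM scaling, edgeR 4.0.16 and DESeq2 1.42.0 on recovered reads, only the populations compared, a replicate block, library weights, leaving out each library, and leaving the BCL11blowID2low gate out of the mean. Folds are ratios of gate means. The limma fit was run on simulated data for the pair BCL11b-ID2+ against BCL11b-ID2- at each stage, with an outcome not reported here. The other fits and comparisons were not simulated. Coordinates are those of GENCODE M21; exon length is the merged length of all annotated exons. Named genes were all 8 members, a list of 14 survival genes and partners, the 6 nearest protein-coding genes on each side and the 5 genes most correlated with the members' mean. Predicted, unnamed, mitochondrial and ribosomal protein genes were left out of that last choice. The members and lists were chosen with earlier results of these data known. Intervals and floors cover counting error only. The summed level of the later alpha-beta and mature T-cell marker list is not reported here.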

Additional observations from a re-analysis of the deposited data

Results flagged for a closer look

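The difference between ID2+ and ID2- gates was not the same in BCL11b+ and BCL11b- cells at E19.5 for 4 GIMAP genes, by the interaction term in limma. The interaction was -6.46 for Gimap8, -6.01 for Gimap4, -4.89 for Gimap3 and -2.09 for Gimap6 on the log2 scale. The first 2 passed in every fit that left out 1 library, and the last 2 did not.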

How the results depend on the processing

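All 45 member calls (single comparisons, pairs of gates and interactions) kept their direction under every alternative run. With 1 library left out at a time, 30 of 45 passed throughout. Calls lost numbered 1 with TMM scaling, 4 with edgeR, 2 with library weights, 6 without the filter, 6 with only the populations compared, 0 with a pseudocount of 8 and 0 with DESeq2. Leaving the BCL11blowID2low gate out of the mean lost 0 of 6. At E15.5 the 1 call over all pairs of gates became 3 with a pseudocount of 8, 0 without the filter, 0 with TMM scaling, 0 with edgeR, 0 with only the populations compared and 17 with DESeq2 (12 higher, 5 lower). DESeq2 also called 2 members against BCL11b-ID2-, 1 against DN2 and 1 in the interaction at E15.5, where limma called 0. The cause of this difference between the tools was not tested. The DESeq2 counts at E15.5 stand without the share of all genes called by DESeq2, which is not given here. Leaving out 1 library gave 0 to 1 calls over the E15.5 pairs and 28 to 35 over the E19.5 pairs, and at E19.5 2 to 4 against BCL11b-ID2-, 3 to 4 against DN2 and 2 to 4 in the interaction. The interaction fell to 2 without BCL11b-ID2- M2, BCL11b+ID2+ M4 or BCL11b-ID2+ M1.

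The labels do not say what the library numbers stand for, and the main fits did not pair libraries by them. Deviations of same-numbered E15.5 libraries correlated at -0.05 to 0.04, beside -0.04 to 0.05 for other pairs of libraries. At E19.5 same-numbered ones correlated at 0.002 to 0.13 (median 0.054), beside -0.105 to 0.035 (median -0.02) for other pairs. Same-numbered libraries thus varied together slightly at E19.5. At E15.5 10 of 14 libraries, and at E19.5 17 of 18, correlated best with their own number, a hint from the data and not the design. With the number as a replicate block, the E15.5 pairs gave 0 calls and the E19.5 pairs 36 in place of 34, and the averaged comparisons and interactions kept their counts (0, 0 and 0 at E15.5; 3, 3 and 4 at E19.5).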
